A study of Caenorhabditis elegans with 4 samples.

Results

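EFL-1 sites on the X chromosome of Caenorhabditis elegans were taken as all regions (peaks) of the authors' combined peak list whose chromosome is X, which gave 556 of 5334 peaks. The other 4778 peaks lie on the 5 autosomes and serve as the comparison. The peaks come from ChIP-seq, in which DNA bound to a precipitated protein is sequenced, of wild type hermaphrodite first-stage larvae (L1) kept at 26 degrees C on E. coli HB101, labelled as strain L1 26dC. EFL-1 ChIP was done in 2 replicates, each with an input library made from sheared chromatin that was not precipitated, which makes 4 samples. All 4 share stage, genotype and temperature. The labels name both a GFP-tagged EFL-1 and an antibody in the N2 strain with a wild type genotype, and from them a precipitated tag and precipitated EFL-1 cannot be told apart. Peak lists exist for ChIP replicate 1, ChIP replicate 2 and the combination, and no values of the input libraries were analysed here.

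EFL-1 is a worm E2F transcription factor, which binds DNA together with the DP protein DPL-1 and works with the retinoblastoma protein LIN-35. This group is known for controlling cell cycle genes and for keeping germline genes off in somatic cells. The X chromosome differs from the autosomes in ways that are known from other work. It is poor in genes that the germline expresses, and in hermaphrodites the dosage compensation complex, which contains a condensin, spreads along it and lowers its transcription in somatic cells. None of these features was measured here.

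Each peak carries its position on the WormBase WS220 build and a q-value, which is a p-value corrected for multiple testing. Peak strength below is −log10 of that q-value. It grows with enrichment and also with the number of reads, and the read depth behind it is unknown. Peaks of different lists were matched by an overlap of at least 1 bp. Shares carry exact Clopper-Pearson 95% intervals, which cover counting error only and treat neighbouring peaks as independent. Since X is 1 chromosome, X was compared with the 5 autosomes one by one, with an exact permutation test over the 6 chromosomes (two-sided). The smallest p this test can give is 0.167, so it cannot pass 0.05, and each comparison also names the range over the autosomes and over the 2 replicates. No gene was assigned to a peak, because no annotation of WS220 was used here.

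The X chromosome was the most sparsely bound chromosome in every list. It carried 280 peaks in replicate 1, 456 in replicate 2, and 556 for the combined list, which is 15.9, 25.8 and 31.5 peaks per Mb. The autosomes carried 24.2 to 47.9 peaks per Mb in replicate 1, 34.2 to 65.9 in replicate 2, and 40.9 to 75.4 for the combined list. Over the replicates the density was 20.9 ± 7.1 peaks per Mb on X and 42.1 ± 10.6 on the autosomes together (SD, n = 2). X lay below each autosome in each list, with chromosome V its nearest neighbour (exact permutation test over chromosomes, p = 0.167, the smallest possible).

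X also gained relatively more peaks in the longer lists. The replicate 1 list was 0.61 times as long as the replicate 2 list on X and 0.67 to 0.73 times as long on the autosomes. The combined list was 1.99 times as long as replicate 1 on X, against 1.58 to 1.80 times on the autosomes. In both ratios X lay outside the range of the autosomes (exact permutation test over chromosomes for the first ratio, p = 0.167). The lists differ in length for reasons that include an unknown difference in depth, whose part in this was not tested.

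X sites were weaker through most of the strength range. The median X strength was 5.01 in replicate 1, 6.60 in replicate 2, and 6.62 for the combined list, and the lowest autosomal medians were 9.83, 11.5 and 11.5. Over the replicates the median was 5.80 ± 1.13 on X and 13.1 ± 0.8 on the autosomes (SD, n = 2), a difference larger than the spread between replicates. The distributions were close at their weak end, where the lists stop at a q-value of 0.01. The 10th percentile of the combined list was 2.56 on X and 2.78 on the autosomes, a ratio of 0.92.

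Higher up the distributions parted and then drew closer again at the top. In the combined list the 75th percentile was 17.7 on X and 48.0 on the autosomes, a ratio of 0.37, and the 90th percentile was 41.8 on X and 97.0 on the autosomes, a ratio of 0.43. At the 99th percentile the values were 130 on X and 165 on the autosomes, a ratio of 0.79. The replicate lists had the same shape, with ratios of X to autosomes of 0.41 and 0.36 at the 75th percentile, 0.38 and 0.43 at the 90th, and 0.64 and 0.69 at the 99th. The gap to the autosomes was thus widest at middle and high strengths. At each of these percentiles X lay below all 5 autosomes in all 3 lists.

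**Figure D1:**
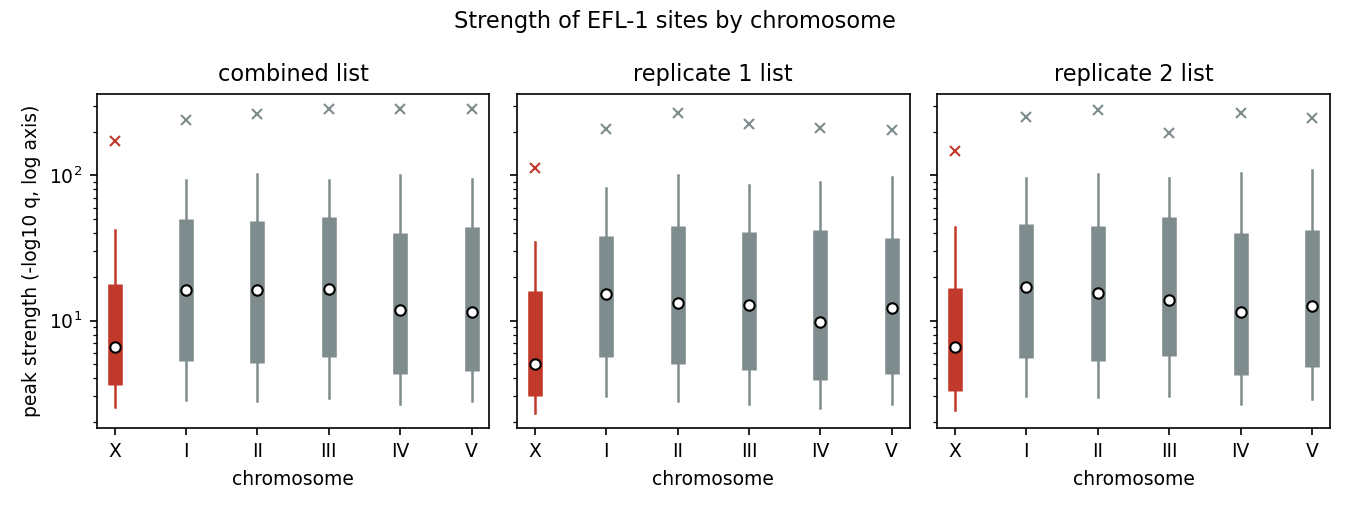
Peak strength (−log10 q, log axis) on each chromosome in the combined, replicate 1 and replicate 2 lists. White points are medians, thick bars run from the 25th to the 75th percentile, thin lines from the 10th to the 90th, and crosses are the strongest peaks. X (red) has the lowest median in each list, 6.62 in the combined one. Its 90th percentile there, 41.8, lies below the 75th percentile of the pooled autosomal peaks, 48.0, but above that of IV alone, 39.8.

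Counts above a fixed strength also set X apart from each autosome. A strength over 50 was reached by 43 of 556 X peaks, or 7.73%, against 22.4% of all combined peaks and 22.2% to 26.3% on the single autosomes. The replicates gave 7.14% and 7.24% on X, or 7.19% ± 0.07, and 22.3% ± 1.5 on the autosomes (SD, n = 2). Per length, X carried 2.44 such peaks per Mb in the combined list and the autosomes 9.14 on V to 19.8 on III.

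The share of peaks that lie on X fell with strength in each list. X makes up 17.6% of the chromosome span, taken to the last peak on each chromosome. In the weakest 10% of peaks the X share was 15.4% in replicate 1, 18.1% in replicate 2, and 13.1% for the combined list, and the 95% interval included 17.6% in the 2 replicate lists but not in the combined one (10.4 to 16.3). In the strongest 10% it was 1.60% in replicate 1 (5 of 313 peaks, interval 0.52 to 3.69), 1.98% in replicate 2 (9 of 454, 0.91 to 3.73), and 3.56% for the combined list (19 of 534, 2.16 to 5.50).

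The decline was gradual, with small reversals between neighbouring groups. In the combined list the X share was highest, at 16.3%, in the 2 groups next to the weakest, and lowest in the second strongest, at 3.38%. The density of X peaks relative to autosomal peaks was 0.91 in each of those 2 weak groups and 0.17 and 0.16 in the strongest and second strongest. Among the strongest 100 peaks X held 0 in replicate 1 (interval 0 to 3.62), 1 in replicate 2, and 2 for the combined list.

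**Figure D2:**
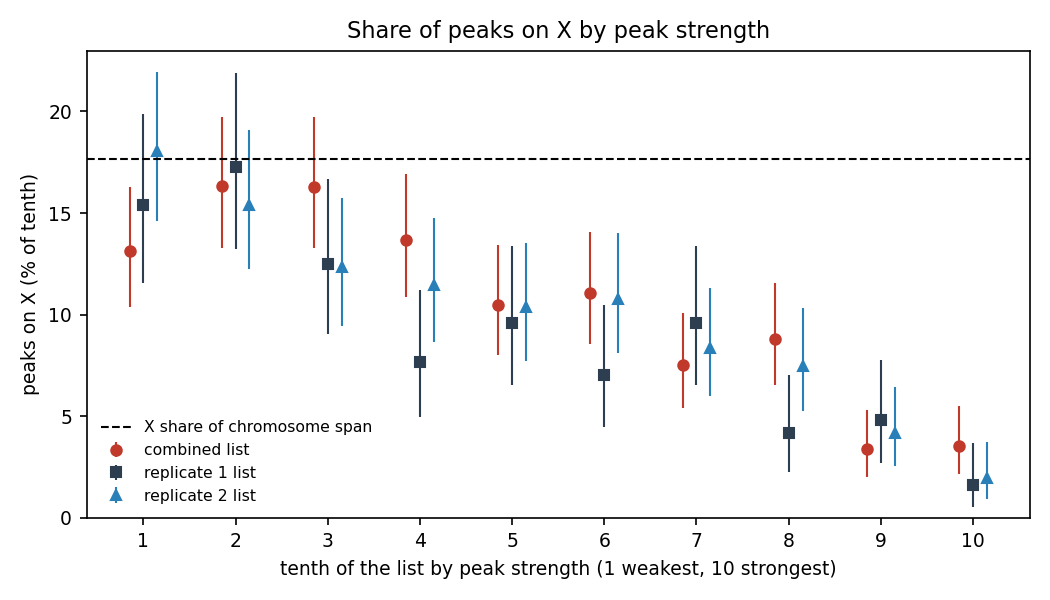
Share of peaks that lie on X (%) in 10 equal groups of each list, from the weakest (left) to the strongest (right). Points are shares, vertical lines are 95% exact binomial intervals, and the dashed line is the X share of the chromosome span, 17.6%. The share in the strongest group lies between 1.60% and 3.56% in the 3 lists.

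The strongest X sites were mostly broad. The 25 sites described here were chosen as the strongest X sites present in both replicate lists, so their presence in both is no result. The combined list also rests on these 2 replicates, so its strengths are not independent of theirs. The 25 sites had combined strengths of 75.7 to 173, with a median of 107. Their replicate 1 strengths ran from 19.4 to 113 (median 64.2) and their replicate 2 strengths from 44.3 to 147 (median 85.3). Replicate 2 was the stronger at 23 of the 25. Of these sites 17 (68.0%, interval 46.5 to 85.1) were at least 1 kb wide, and their median width was 1290 bp. Among the 677 autosomal peaks in both lists within the same range of combined strength, 18.8% were that wide, with 14.6% on I to 27.5% on V, and the median width was 673 bp. They were spread over the chromosome, with 7, 7, 6 and 5 in 4 successive parts of equal length.

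The leading site was X:8035819-8037011 (WS220), 1193 bp wide, with strengths of 113 in replicate 1, 129 in replicate 2, and 173 for the combined list. It ranked 168 of all peaks in replicate 1, 189 in replicate 2, and 39 for the combined list, so it stood higher in the combined ranking than in either replicate. The next site, X:16929326-16931978, was 2653 bp wide and less even, with strengths of 64.2 in replicate 1, 126 in replicate 2, and 160 for the combined list. The site X:14525302-14526591 had strengths of 91.6, 106 and 138 in the same order of lists.

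Sites in the left-hand part of X followed. The site X:4222253-4223715 had the highest replicate 2 strength on X, 147 (rank 75), against 84.6 in replicate 1, and 135 in the combined list. A further strong site nearby, X:4208489-4210083, had strengths of 70.4 in replicate 1, 78.7 in replicate 2, and 107 for the combined list. The site X:6804410-6805450 had strengths of 101 in replicate 1, 124 in replicate 2, and 134 for the combined list, which made it the second strongest X site in replicate 1. The broad site X:6740509-6745859, 5351 bp wide and the widest on X, had 54.2 in replicate 1, 65.3 in replicate 2, and 126 for the combined list. Its combined strength exceeded the sum of its replicate strengths.

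The replicates differed most, as a ratio, at 2 of these sites. At X:17479303-17480611 the strength was 39.0 in replicate 1 and 97.0 in replicate 2, and at X:2089449-2089916 it was 22.6 in replicate 1 and 67.7 in replicate 2. By difference the gap was wider at X:4222253-4223715 and X:16929326-16931978, given above. The opposite order held at X:1503370-1505244, with 54.4 in replicate 1 and 53.0 in replicate 2, and at X:11603175-11607669, with 61.9 in replicate 1 and 52.9 in replicate 2. Not all strong X sites were broad. The site X:104684-105130, near the left end of the chromosome, was 447 bp wide with strengths of 50.7 in replicate 1, 81.7 in replicate 2, and 95.9 for the combined list, and X:5984395-5985019 was 625 bp wide with 63.1, 111 and 103.

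**Figure D3:**
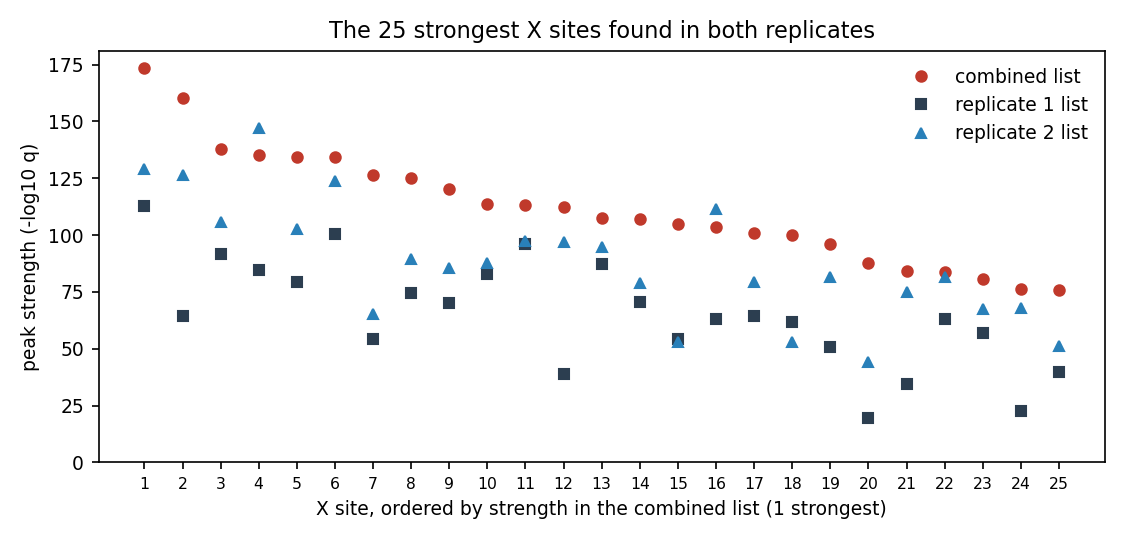
Peak strength (−log10 q) in the combined list (red circles), replicate 1 (dark squares) and replicate 2 (blue triangles) at the 25 strongest X sites found in both replicate lists, ordered by combined strength. Combined strengths run from 173 down to 75.7, and replicate 2 lies above replicate 1 at 23 of the 25 sites.

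Fewer X sites than autosomal sites were found by both replicates, and this order turned round at like strength. Of 556 X sites, 257 overlapped a peak in both replicate lists, which is 46.2% (42.0 to 50.5), against 57.2% of autosomal and 56.1% of all combined peaks. The single autosomes ran from 54.7% on I to 60.9% on III, so X was the lowest (exact permutation test over chromosomes, p = 0.167, the smallest possible). A further 191 X sites (34.4%) overlapped replicate 2 only, 17 (3.06%) replicate 1 only and 91 (16.4%) neither list. The autosomes together had 27.1% in replicate 2 only, 1.28% in replicate 1 only (2.57% on V) and 14.5% in neither. Of all combined peaks 14.7% were in neither, and I, at 17.0%, lay above X.

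Stronger peaks were found again more often, so the combined list was cut by strength into 4 equally large groups. In the weakest group 4 of 204 X sites (1.96%) were in both replicate lists, against 0.53% on the autosomes. In the second weakest group the share was 42.6% on X (72 of 169, interval 35.0 to 50.4) and 29.4% on the autosomes, and in the second strongest it was 98.5% on X (129 of 131, 94.6 to 99.8) and 91.7% on the autosomes. All 52 X sites and all 1282 autosomal sites of the strongest group were in both lists. Averaged with the numbers of X sites as weights, X stood 6.13 percentage points above the autosomes within groups, whereas over all peaks the difference between X and the autosomes was -10.98 points.

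The size of this difference depended on the autosome. In the second weakest group the autosomes ran from 16.9% on I to 39.8% on IV, and the interval of X included the value of IV. In the second strongest group they ran from 84.4% on I to 96.2% on V, and the interval of X included V and II. The exact permutation test over chromosomes gave p = 0.333 in each of these 2 groups. Median strength within the groups was 6.86 on X and 7.43 to 7.92 on the autosomes in the second weakest, and 22.4 on X and 21.3 to 25.5 on the autosomes in the second strongest. In the weakest group it was 3.05 on X and 2.92 to 2.97 on the autosomes.

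The replicate lists, grouped by their own strengths, gave opposite orders in the 2 directions of matching in their weaker groups. In the second weakest group of replicate 2, 77 of 117 X peaks (65.8%, 56.5 to 74.3) were found in replicate 1, against 53.3% on the autosomes and 61.3% on IV. In the weakest group of replicate 2 the shares were 17.4% on X (12.3 to 23.5) and 15.03% on the autosomes, with V at 20.0%, above X. In the other direction X was the lower: in the weakest group of replicate 1, 101 of 120 X peaks (84.2%, 76.4 to 90.2) were found in replicate 2, against 90.02% on the autosomes, with V at 83.5%. Over all strengths X was the lower in both directions. Of X peaks in replicate 2, 56.6% were found in replicate 1 (258 of 456, 51.9 to 61.2). The autosomes together had 67.7%, and the single autosomes 66.1% to 70.5%. Of X peaks in replicate 1, 92.9% were found in replicate 2 (260 of 280), against 97.5% on the autosomes. The strongest of the 20 X peaks of replicate 1 not found reached only 4.41.

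X sites were broader than autosomal sites of like strength in each of the 3 lists. In the weakest group of the combined list the median width was 402.5 bp on X and 270.5 to 348 bp on the autosomes, and in the second weakest it was 446 bp on X and 360 to 405.5 bp on the autosomes. In the second strongest group it was 536 bp on X and 420 to 489.5 bp on the autosomes, and in the strongest 823 bp on X and 553 to 673 bp on the autosomes. The X median lay above each autosome in all 4 groups (exact permutation test over chromosomes, p = 0.167 in each, the smallest possible). The strongest X sites of replicate 1 had a median width of 948 bp (26 peaks), against 536 to 632 bp on the autosomes, and those of replicate 2 had 768 bp (49 peaks), against 532 to 630.5 bp.

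Without regard to strength the difference in width was small. X peaks had median widths of 448 bp for replicate 1, 443.5 bp for replicate 2 and 474.5 bp for the combination, and in both replicate lists chromosome V was wider, at 471 and 451 bp (exact permutation test over chromosomes, p = 1.0 and 0.50 in the replicates). The share of broad peaks did separate X in each list. Peaks of at least 1 kb made up 9.64% of X peaks in replicate 1, 10.7% in replicate 2, and 12.8% for the combined list, against 7.91%, 7.70% and 10.5% on V, the highest autosome in each, and 7.84% of all combined peaks. Over the replicates the share was 10.2% ± 0.8 on X and 5.78% ± 0.22 on the autosomes (SD, n = 2).

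**Figure D4:**
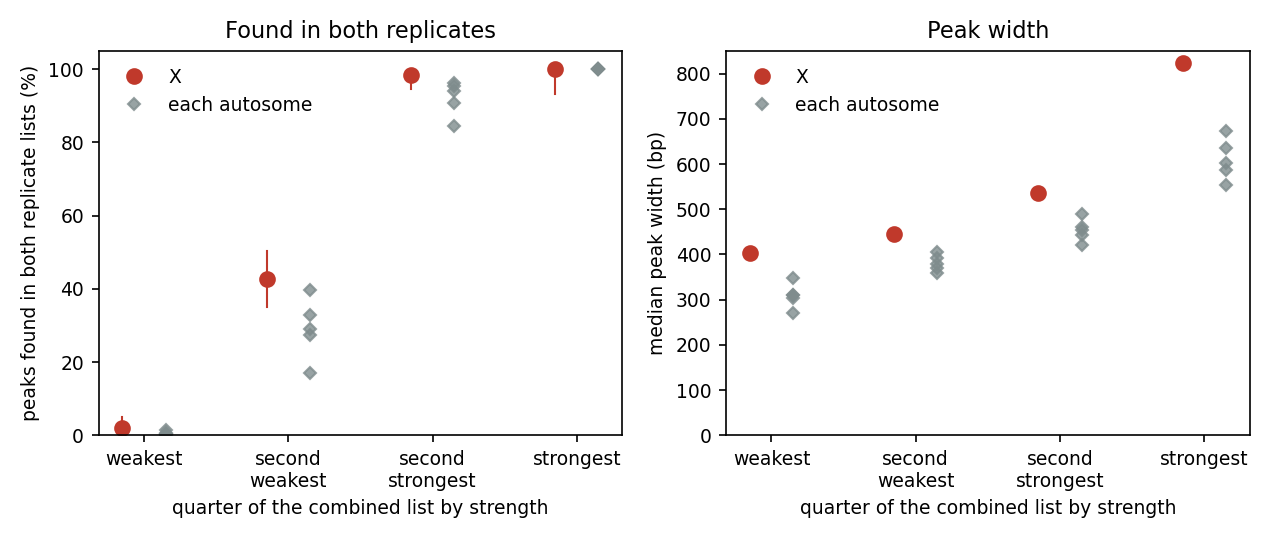
Combined peaks in 4 groups of equal size by strength, weakest at the left. The left panel gives the share found in both replicate lists (%), with 95% exact binomial intervals for X, and the right panel the median width (bp); red circles are X and grey diamonds are the 5 autosomes. In the second weakest group X stands at 42.6% and 446 bp, each above the 5 autosomes.

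Broad X sites were weak for their width. Among combined peaks of 500 to 1000 bp, the 179 X sites had a median of 7.77 in strength, against 40.1 for the autosomal ones and 32.8 on IV, the lowest autosome. Of these X sites 50.3% were in both replicate lists, against 77.1% on the autosomes. From 1000 to 3000 bp the 65 X sites had a median strength of 18.9, against 60.4 on the autosomes and 46.6 on V. Across X sites, width and strength had a Spearman's rho of 0.40 (n = 556 sites, which share their libraries and depth), against 0.58 to 0.65 on the autosomes. The replicate lists gave 0.46 and 0.43 on X, below the 0.50 to 0.62 and 0.58 to 0.64 on the autosomes.

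Peaks of 3 kb or wider numbered 6 on X, or 1.08% of its sites, against 0.469% of all combined peaks. The exact interval of the X share, 0.40 to 2.33, includes the value of all peaks. All 6 overlapped peaks in both replicate lists, as did all 19 autosomal peaks of that width, and their strengths ranged widely. The site X:12876604-12880540, 3937 bp wide, had 3.46 in replicate 1, 3.64 in replicate 2, and 7.73 for the combined list. Its replicate 1 peak was only 382 bp wide, against 2279 bp in replicate 2, so the full width was called in neither replicate alone.

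The other broad sites also changed outline between lists. The site X:4144123-4148398 was 4276 bp wide in the combined list and had strengths of 6.89 in replicate 1, 25.5 in replicate 2, and 39.5 for the combined list. It was called as 2 peaks in replicate 1, where the stronger was 941 bp wide, and as 1 peak of 4087 bp in replicate 2. The site X:3114301-3117720 was 3420 bp wide, with 2.84 in replicate 1, 19.6 in replicate 2, and 23.9 for the combined list. The site X:6251924-6256140, 4217 bp wide, had 19.4, 44.3 and 87.9 in the same order and was also split in replicate 1. The site at X:11603175-11607669, 4495 bp wide, was split into 2 peaks in each replicate. Such divided calls were rare over X as a whole: 252 of the 257 sites found in both lists matched 1 peak in each.

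Where the replicates had overlapping peaks on X, the peak centres mostly lay close together. Only overlapping peaks were paired, so peak width bounds the offset. Over 257 X pairs whose members were mutual strongest partners, the centres lay a median of 22.0 bp apart, and 221 pairs (86.0%) were less than 100 bp apart. The autosomes had medians of 14.8 bp on I to 22.5 bp on IV, so X lay inside their range (exact permutation test over chromosomes, p = 0.50). The larger offsets were more frequent on X: the share under 100 bp was 87.4% to 93.2% on the autosomes, and the 90th percentile of the offset was 165.5 bp on X and 72.7 to 128 bp on the autosomes. Broad peaks allow larger offsets and were more frequent on X, and their part in this was not tested. Spearman's rho between the replicate strengths was 0.87 on X (257 pairs) and 0.93 to 0.95 on the autosomes, across peaks that share their libraries. Within ranges of replicate 1 strength rho was 0.41 on X and 0.37 on the autosomes from 2 to 5, 0.29 on X and 0.33 on the autosomes from 5 to 10, 0.52 on X and 0.51 on the autosomes from 10 to 25, and 0.79 on X (38 pairs) and 0.89 on the autosomes at 25 or more. X was thus not the lower in each range.

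Replicate 2 gave the higher strength at 234 of 257 X pairs (91.1%), against 94.9% of autosomal pairs. The ratio of replicate 2 over replicate 1 had a median of 1.96 on X, within the 1.76 to 1.96 of the autosomes. Pairs were also grouped by replicate 1 strength, which is the denominator of the ratio, and grouping by replicate 2 strength was not tested. At like replicate 1 strength the X ratio was at or near the low end. For replicate 1 strengths from 2 to 5 it was 2.38 on X (118 pairs) and 2.62 to 2.88 on the autosomes, from 5 to 10 it was 2.09 on X (44 pairs) and 2.08 to 2.75 on the autosomes, and from 10 to 25 it was 1.83 on X (57 pairs) and 1.96 to 2.17 on the autosomes. At 25 or more it was 1.29 on X and 1.29 to 1.39 on the autosomes. X lay below every autosome from 2 to 5 and from 10 to 25, below all but V from 5 to 10 and below all but II at 25 or more.

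Along the chromosome, X sites were spread fairly evenly, with the most in the last of 4 equal parts. Of 4 equal parts of the X span, the last held 32.1% of X peaks in replicate 1 (90 of 280, 26.7 to 38.0), 29.6% in replicate 2 (135 of 456, 25.5 to 34.0), and 30.8% for the combined list (171 of 556, 26.9 to 34.8). The third part held the fewest, with 16.1% in replicate 1, 21.5% in replicate 2, and 20.7% for the combined list. The order of these 2 parts was the same in each list, while the other two changed places, with 28.6% and 23.2% in replicate 1 and 23.9% and 24.6% in the combined list.

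In 10 equal parts of the X span, the ninth part held the most peaks in each list, at 13.9% in replicate 1, 13.2% in replicate 2, and 13.5% for the combined list. Its interval in the combined list, 10.8 to 16.6, lay above the 10% of an even spread. The ninth part was picked as the highest of 10, and its interval makes no allowance for that choice. It is therefore no test of an even spread. The last part, at the right end, held 11.1% in replicate 1, 9.65% in replicate 2, and 10.3% for the combined list. The seventh part held 5.71% in replicate 1, 8.33% in replicate 2, and 7.73% for the combined list, and its interval lay below 10% in replicate 1 only (3.30 to 9.11). The seventh part was picked as a low one, so the same limit holds for its interval. The strongest 25% of X sites of the combined list, 139 peaks, were spread in a similar way, with 38, 34, 22 and 45 in the 4 successive parts. Median strength in these parts of the combined list was 9.06, 5.33, 5.47 and 7.58, so the 2 central parts carried weaker and, together, fewer sites. In replicate 1 the order of the medians differed, at 4.67, 7.07, 5.39 and 4.67.

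**Figure D5:**
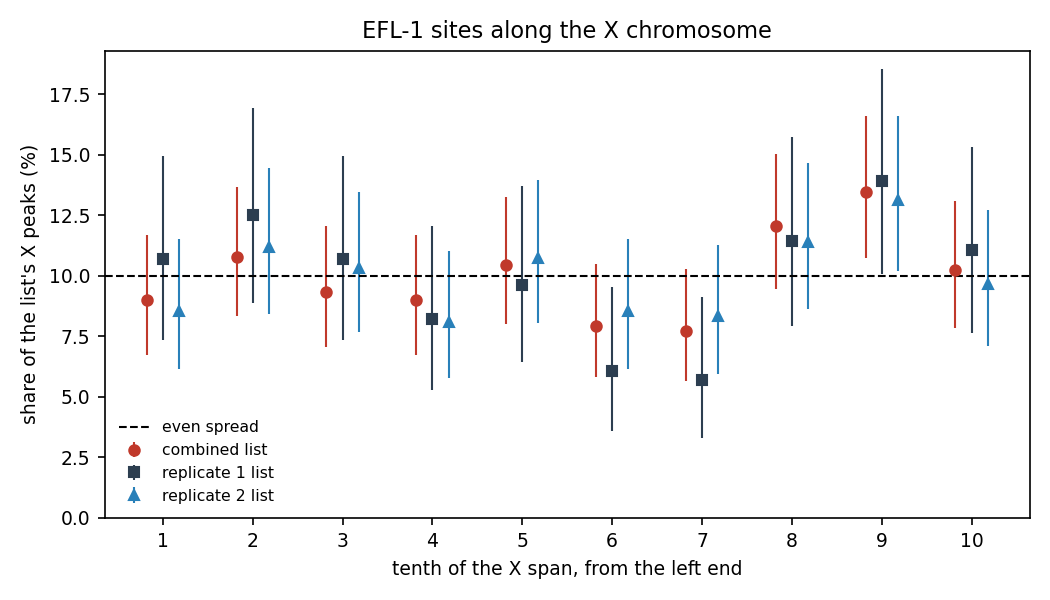
Share of each list's X peaks (%) in 10 equal parts of the X span, counted from the left end. Points are shares, vertical lines 95% exact binomial intervals, and the dashed line an even spread of 10%. The ninth part holds 13.2% to 13.9% in the 3 lists, and the seventh 5.71% to 8.33%.

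At a finer scale the number of X sites varied several-fold between neighbouring stretches. Of 177 windows of 100 kb, 17 held no combined peak, the median was 3 and the most was 9. The window X:8000001-8100000 held 9 peaks, 4 of them in both replicate lists, among them the strongest X site. The window X:6200001-6300000 also held 9, of which 3 were in both lists, and it includes the broad site described above. A further 4 windows held 8 peaks each. Of these, X:14500001-14600000, with the third strongest X site, and X:2500001-2600000 each had 1 peak in both lists, X:13900001-14000000 had 3 and X:13300001-13400000 had 4.

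The longest stretches without a combined peak on X were X:5486275-5707806, of 221532 bp, X:1627518-1837706, of 210189 bp, and X:17184693-17392067, of 207375 bp. No peak of either replicate lay wholly inside any of them. The second begins at the right edge of a strong site, X:1626819-1627517, with strengths of 39.6 in replicate 1, 51.2 in replicate 2, and 75.7 for the combined list. The median gap between neighbouring X peaks was 19473 bp in the combined list, against 6936 bp on III to 10644 bp on V.

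Close neighbours were scarcer on X. Of 556 X sites, 62 (11.2%) had a neighbour within 1 kb, against 20.2% of all combined peaks and 17.0% to 24.98% on the single autosomes (exact permutation test over chromosomes, p = 0.167, the smallest possible). The replicates gave 6.79% and 8.11% on X, against 6.80% to 18.8% and 12.3% to 20.1% on the autosomes, so that in replicate 1 X and II nearly coincided. A lower density by itself leaves fewer close neighbours, and its part in this was not tested. Sites more than 50 kb from any other made up 3.78% of X sites (21 of 556), against 0.10% on III to 1.29% on V.

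Peaks in close pairs were weaker at the median on X than on the autosomes, as X peaks were in general. In 14 of the 32 X pairs both partners lay in the 2 weaker of 4 strength groups, against 151 of 563 autosomal pairs. In 6 X pairs (18.8%) the stronger partner exceeded 50, against 39.1% of autosomal pairs. Over all peaks, the weakest and second weakest groups held 204 and 169 of 556 X peaks, against 1129 and 1165 of 4778 autosomal peaks. A strength over 50 was reached by 7.73% of X peaks and 24.1% of autosomal peaks. The part of these general shares in the pair shares was not tested. In the 32 X pairs the median strength was 17.0 for the stronger partner and 3.72 for the weaker, against 33.0 and 5.02 in 563 autosomal pairs. The second strongest X site, X:16929326-16931978, with 160, had a neighbour of 3.54 at 385 bp, and X:11093645-11094625, with a strength of 113, had one of 5.94 at 707 bp. Both partners were in both replicate lists in 9 of the 32 X pairs (28.1%), against 27.9% of autosomal pairs. In 13 X pairs (40.6%) 1 partner was, against 53.3% of autosomal pairs. In 10 X pairs (31.2%) none was, against 18.8% of autosomal pairs. Over all sites, 46.2% on X and 57.2% on the autosomes were in both lists. The part of this lower share in the pair values was not tested. An even pair was X:2687135-2687575 and X:2688523-2688908, with 20.9 and 17.0. X sites with a close neighbour were wider than the others, at 731.5 and 464 bp, and were in both replicate lists about as often, at 46.8% (34.0 to 59.9) and 46.2% (41.7 to 50.7).

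X sites missing from one replicate list or both were weaker at the median than those in both. The combined strengths rest on these same replicates, so this order is no independent result. The 257 sites in both lists had strengths of 3.93 to 173 with a median of 19.5, against an autosomal median of 39.6 and 34.2 on IV, the lowest autosome. The 191 sites shared with replicate 2 only had a median of 4.60, and the strongest of them, X:2401887-2402375, reached 15.1 in the combined list and 18.8 in replicate 2. Among the 17 sites shared with replicate 1 only, with a median of 4.14, the strongest was X:1443385-1444173, with 6.50 in the combined list and 3.24 in replicate 1. The 91 sites in neither list had a median of 2.66 and reached at most 4.74, at X:47528-47883. The autosomal medians were 5.70 for replicate 2 only, 4.58 for replicate 1 only (3.84 on IV) and 2.61 for neither. In these classes X thus lay much closer to the autosomes than among sites in both lists.

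Nearly all X peaks of the replicates entered the combined list, which itself rests on these replicates. The share of autosomal replicate peaks that entered it was not computed, so these counts do not set X apart. The 2 of 280 replicate 1 peaks without a combined partner were X:293240-293624, with a strength of 4.41, and X:13765320-13765600, with 2.07. The 7 of 456 replicate 2 peaks without one had strengths of 2.08 to 2.60, the strongest being X:10158629-10159061. At X sites in both lists the combined strength exceeded both replicate strengths at 245 of 257 sites (95.3%), against 85.3% on II to 91.4% on IV. The narrowest combined X peak, X:11240183-11240186, was 4 bp wide, with a strength of 2.03 and no partner in either replicate.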

How the data were processed

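The authors deposited 3 peak lists, for ChIP replicate 1, ChIP replicate 2 and both combined. Per the file headers, positions refer to WormBase WS220 after a liftover that changed the length of 0 X peaks, and peaks were called with PeakSeq, per the source column. The deposited value of each peak is a q-value, at most 0.01. For the aligner, filters, use of input and way of combining, the sources used here give nothing, and no read counts were at hand. Strength was computed as −log10 of the q-value. Overlaps, shares, medians and exact tests were computed with Python 3.11.15, pandas 2.3.3 and scipy 1.17.1, and the matching was tested on simulated peak lists. Members, comparisons and named sites (the 25 strongest X sites in both replicate lists, X sites of at least 3 kb, the strongest of each support class, the densest windows with ties, and the 3 longest gaps) were chosen with earlier results of these data known. Other sites, and the widths of equally strong autosomal peaks, were chosen after the values were seen. Whether the replicates were separate cultures is not labelled, so the SDs may measure technical spread; the p-values are over chromosomes and use no spread between replicates. The planned E2F motif shares needed sequences of WS220 and were not analysed here. Alternatives were other lists, a stricter threshold, a larger overlap, joined neighbours and strength groups.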

Additional observations from a re-analysis of the deposited data

How the results depend on the processing

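Of 35 alternative values over 10 results, 13 stayed within the spread between replicates or the 95% interval, 20 moved by more and 2 changed sign. Leaving out a replicate meant taking the other replicate's own list, not a new combined list. Where the spread between replicates was the measure, it came from these same 2 lists, so these values are not independent of it. The X share of peaks, 10.4%, was 6.86% in the stronger 50% of the combined list, 8.60% among peaks in both replicate lists, 12.2% by covered bases and 8.96% to 10.04% with either replicate left out. The density of X over that of the autosomes, 0.54, was 0.34 in the stronger 50% and 0.46 to 0.52 without either replicate. The share of X sites in both replicate lists was 98.9% in the stronger 50%, which by construction lacks weak peaks, and X minus autosomes turned from -10.98 points to 2.93 there and to 6.13 within strength groups. Median strength on X minus autosomes, -7.90, was -7.54 to -7.03 without either replicate and -20.11 among peaks in both lists. Median width on X minus autosomes, 38 bp, was 7.5 to 18.5 bp without either replicate, 27.5 bp with neighbours under 1 kb joined and 94.9 bp within strength groups. Within strength groups of replicate 1 and of replicate 2, an alternative chosen after seeing the data, it was 78.8 and 73.2 bp. The strength ratio of the replicates on X was 1.66 at a replicate 1 strength of at least 10, against 1.96 over all pairs. The last of 4 equal parts of X held 33.1% of the stronger 50% of X peaks. Close neighbours were present for 4.37% of X peaks in the stronger 50% and 6.79% to 8.11% without either replicate. The cause of these moves was not tested beyond the construction named. Read depth is unknown, so what it limits was not assessed. E2F motif alternatives were not run. No paired analysis was possible because no values accompany the input.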
